A study of Mus musculus with 12 samples.

Results

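The Hox cluster genes were examined in whole embryonic hearts of mice that lack the histone chaperone HIRA in the early cardiac mesoderm. Members were genes of the per-library table whose symbol is Hoxa, Hoxb, Hoxc or Hoxd followed by a number, and 37 of 20368 genes are described, with 10 members in cluster A, 10 in cluster B, 9 in cluster C and 8 in cluster D. Hoxd4 was not analysed here. RNA-seq libraries were made from hearts at embryonic day 11.5 (E11.5) and E12.5 in the CD1 strain, with 2 groups of 3 libraries at each stage. Cre controls were Mesp1Cre;Hira+/fl and mutants were Mesp1Cre;Hira-/fl, so both genotypes carry the Cre transgene and a floxed Hira allele that Cre can recombine, and the control keeps 1 intact allele. Mesp1Cre acts in nascent mesoderm that gives rise to most of the heart. Lineages outside it, such as the neural crest, keep the floxed allele unrecombined. There mutants have 1 working Hira allele beside the null one and controls have 2. The labels do not say whether a library is 1 heart or a pool, so the p-values measure the spread between these libraries, and fewer cells of a type and less RNA per cell cannot be told apart in whole hearts.

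Hox genes encode homeodomain transcription factors that give cells their position along the head-to-tail axis. They lie in 4 clusters in which gene order follows the order of expression along that axis, low paralog numbers being used early and anteriorly and high paralog numbers late and posteriorly. In the heart, anterior members such as Hoxb1 and Hoxa3 are known from the posterior second heart field, where they are induced by retinoic acid, and from the cardiac neural crest. Outside their domains the clusters are kept silent by Polycomb repressors, and HIRA deposits the histone variant H3.3, which is found at both active and Polycomb-marked genes.

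Library totals ran from 11994148 to 17483982 reads assigned to autosomal genes, so a count of 0 in a library allows a level of up to 0.172 to 0.25 CPM (read counts relative to the library size, scaled by TMM), which covers counting error only. Hira itself measured 78.1 ± 8.89 CPM in controls and 64.7 ± 8.42 in mutants at the earlier stage, and 75.1 ± 13.1 and 73.7 ± 5.19 at the later stage (SD, n = 3), and did not pass the test at either stage. The table gives 1 value for the whole gene, so the loss of the floxed part cannot be read from it, and the values of Hira do not check the genotype labels. Heart muscle markers such as Tnnt2 and Actc1 were abundant in every library, with the 8 markers of the list summing to 17972.5 to 26028.6 CPM. There were 4 libraries that stood apart in markers of lung and foregut endoderm or of liver. The 7 genes of lung and foregut endoderm summed to 21.0 CPM in E11.5 control 1, 14.04 in E11.5 mutant 1 and 16.4 in E12.5 mutant 3, against 0.676 to 3.72 in the other 9 libraries. The 5 liver genes summed to 24.8, 54.8 and 13.6 CPM in those 3 libraries and to 49.4 in E12.5 mutant 1, against 0.729 to 5.41 elsewhere. The 6 neural tube genes summed to 30.5 and 29.8 CPM in E11.5 mutants 1 and 3, against 6.99 to 17.2 elsewhere. By Y-linked genes, all 3 E11.5 controls and 1 library of each other group were male.

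Hox genes were low in the heart and were dominated by the anterior end of the clusters. Over all 12 libraries the members took 3650 reads, of which 84.6% fell on paralog groups 1 to 4, 11.2% on groups 5 to 8 and 4.14% on groups 9 to 13. Cluster B held 61.8% of the reads, cluster A 18.8%, cluster D 12.9% and cluster C 6.47%. Per length, as RPKM averaged over the 12 libraries, the order was Hoxb2 at 2.14, Hoxb3 at 1.56, Hoxb4 at 0.783, Hoxa3 at 0.575, Hoxa2 at 0.467, Hoxa4 at 0.380, Hoxd3 at 0.368, Hoxa5 at 0.303, Hoxd8 at 0.259 and Hoxc4 at 0.228. Only Hoxb2 and Hoxb3 of the 37 exceeded 1 RPKM over the 12 libraries, and 4 members reached 0.5 RPKM. At E11.5 the ranges of mean ± SD of neighbours in this order overlapped in both genotypes. In E12.5 controls Hoxb2 had 1.19 ± 0.225 RPKM, Hoxb3 0.848 ± 0.124 and Hoxb4 0.386 ± 0.174, and in E12.5 mutants they had 2.85 ± 0.888, 1.61 ± 0.161 and 0.977 ± 0.309 (SD, n = 3), so that Hoxb3 and Hoxb4 were set apart by more than their SDs in both.

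**Figure D1:**
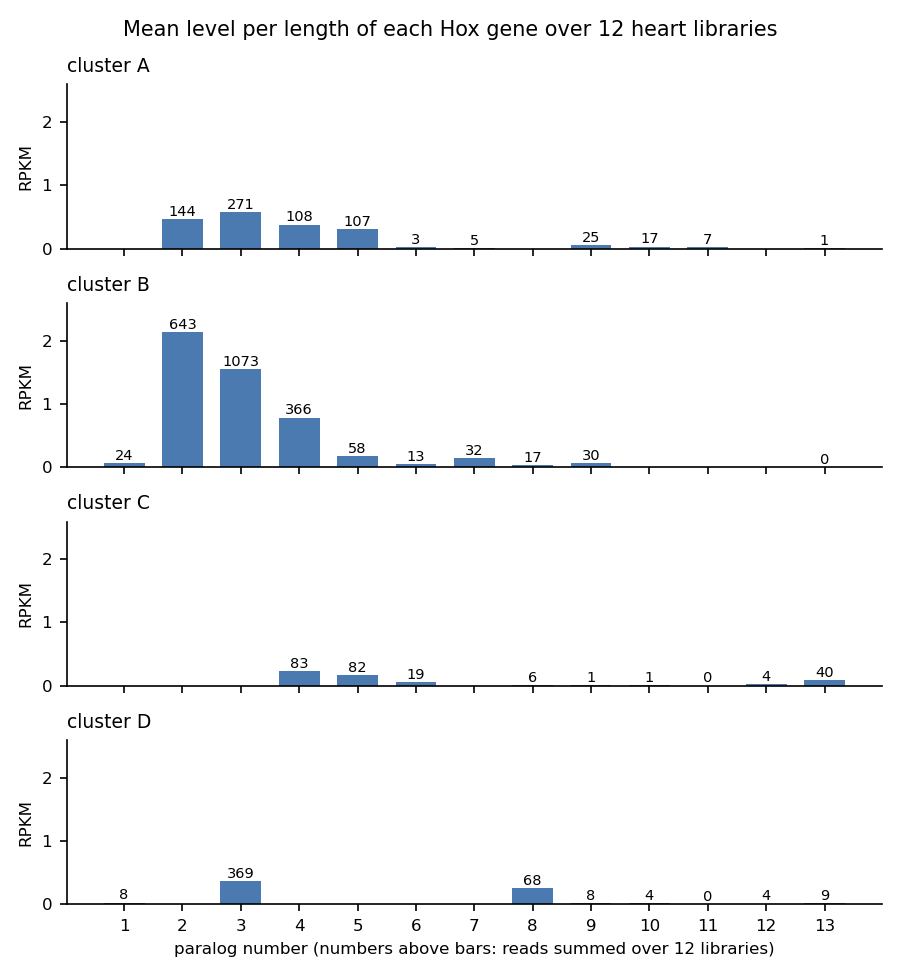
Mean RPKM of each Hox gene over the 12 libraries (vertical axis) against its paralog number (horizontal axis), with 1 panel per cluster and the reads summed over the 12 libraries above each bar. Bars are high at paralog numbers 2 to 4 of cluster B, led by Hoxb2 at 2.14 RPKM, and near 0 from number 9 on in every cluster.

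The remaining members were close to the floor. A set of 6 members had a read in all 12 libraries, namely Hoxa2, Hoxb2, Hoxb3, Hoxb4, Hoxd3 and Hoxd8. A further 16 members had at most 10 reads over the whole series, and Hoxb13, Hoxc11 and Hoxd11 had none. A count of 0 over the 12 libraries allows up to 0.0162 CPM. Hoxb1, which marks the posterior second heart field and part of the hindbrain, had 24 reads in 7 libraries, 10 of them in E11.5 mutant 1.

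**Figure D2:**
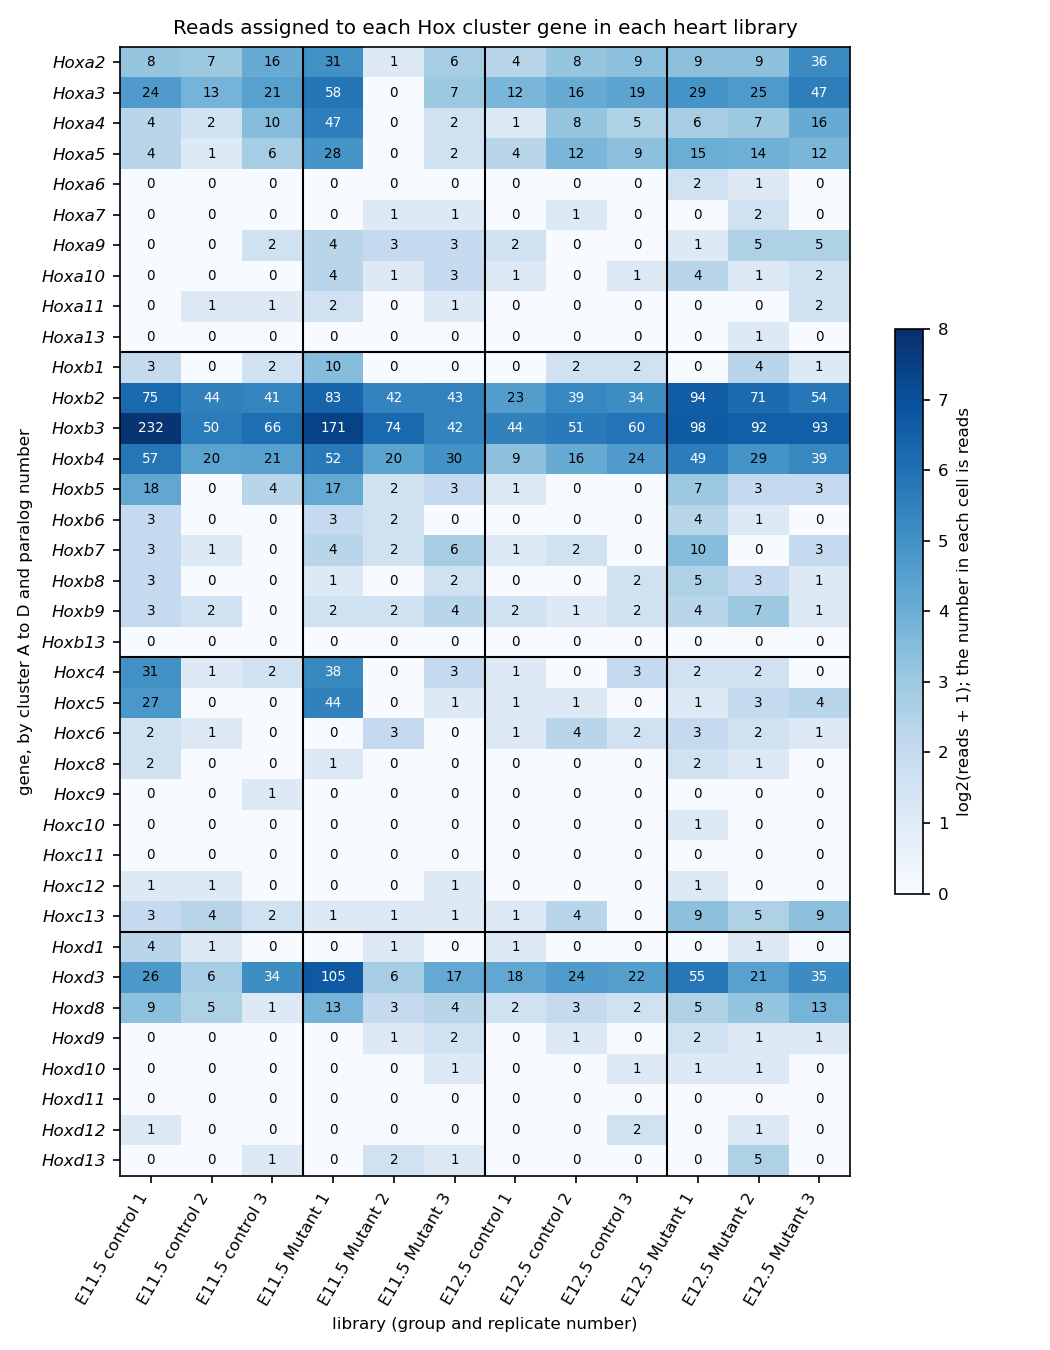
Reads on each of the 37 members (rows, by cluster and paralog number) in each of the 12 libraries (columns, by group and replicate), printed in each cell and shaded by log2(reads + 1). The rows of Hoxb2, Hoxb3 and Hoxb4 are dark throughout, and Hoxc4 and Hoxc5 are dark only in control 1 and mutant 1 at E11.5.

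Members share transcribed sequence, which limits how far they can be told apart. In the coordinates of the files 12 members overlap another member: the span of Hoxa3 on chromosome 6 overlaps all or part of Hoxa2, Hoxa4, Hoxa5 and Hoxa6, that of Hoxc5 on chromosome 15 all or part of Hoxc6, Hoxc8, Hoxc9 and Hoxc10, and Hoxd10 and Hoxd11 overlap on chromosome 2. In the GENCODE vM21 annotation 12 members overlap a gene of the other strand, among them Hoxb2 and Hoxb3 with Hoxb3os, and Hoxd3 with Hoxd3os1. Use of strand in counting is not given in the sources used here, so reads of these members and of their partners cannot be told apart. Hoxb4, at chr11:96316684-96321638, overlaps neither.

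The main result concerned E12.5, where the question was whether Hox genes differ between mutant and control hearts. Here 2 members, Hoxb2 and Hoxb3, were higher in mutants, and no member was lower. Both belong to the anterior part of cluster B. A call needed both a 1.5-fold difference and a p of 0.05 or less from edgeR's quasi-likelihood test after Benjamini-Hochberg adjustment. By this rule 2 of the 4 members that passed the filter on low values were called higher, beside 1.59% of all 12257 genes tested being called higher, 1.36% lower and 2.95% in either direction. The other 33 members did not reach the mean of 0.5 RPKM over these 6 libraries and were not tested with the filter.

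Hoxb2 (ENSMUSG00000075588, chr11:96350525-96354016, plus strand) is a regulator of hindbrain segment and neural crest identity. Its levels were 1.52, 2.20 and 2.09 CPM in E12.5 controls 1 to 3 and 6.29, 4.14 and 3.53 CPM in mutants 1 to 3. Every mutant library lay above every control library, and mutant 1 was the highest. Hoxb2 was 2.41-fold higher in mutants (log2 fold change 1.27, SE 0.28, edgeR adjusted p = 0.0299).

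Hoxb3 (ENSMUSG00000048763, chr11:96323326-96346685, plus strand) acts in the pharyngeal arches and hindbrain together with its paralogs Hoxa3 and Hoxd3. It had 2.90, 2.88 and 3.69 CPM in E12.5 controls and 6.56, 5.37 and 6.09 CPM in mutants. The 3 mutant libraries were close to each other and all above the controls. Hoxb3 was 1.92-fold higher in mutants (log2 fold change 0.94, SE 0.20, edgeR adjusted p = 0.0265). The exact permutation test on either gene's CPM gives p = 0.1, the smallest that 3 against 3 libraries allow. Neither call held without control 1, control 2 or mutant 1 (edgeR adjusted p = 0.114, 0.0674 and 0.103 for Hoxb2, and 0.0969, 0.0933 and 0.0884 for Hoxb3), that of Hoxb2 was lost without mutant 2 (0.0535) and that of Hoxb3 without mutant 3 (0.0573). With all 12 libraries in one fit, which share 1 estimate of the spread, the adjusted p was 0.0997 for Hoxb2 and 0.540 for Hoxb3.

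Hoxb4 and Hoxa3 lay above the controls in every mutant library without passing the threshold. All 4 members tested were thus higher without overlap, where 12.1% of all genes tested were higher and 14.2% lower without overlap. Hoxb4, the next gene of cluster B, had 0.594, 0.902 and 1.48 CPM in controls and 3.28, 1.69 and 2.55 CPM in mutants, with a log2 fold change of 1.33 (SE 0.38, edgeR adjusted p = 0.0710). Hoxa3, which is needed for the third pharyngeal arch and its arteries, had 0.792, 0.902 and 1.17 CPM in controls and 1.94, 1.46 and 3.08 CPM in mutants, a log2 difference of 1.18 (SE 0.36, adjusted p = 0.0874). Hoxb4 and Hoxa3 averaged 0.386 and 0.375 RPKM in E12.5 controls and 0.977 and 0.849 in mutants, so both passed the filter of 0.5 through the mutant libraries, and the number of members tested that were higher is no support for a shared direction.

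**Figure D3:**
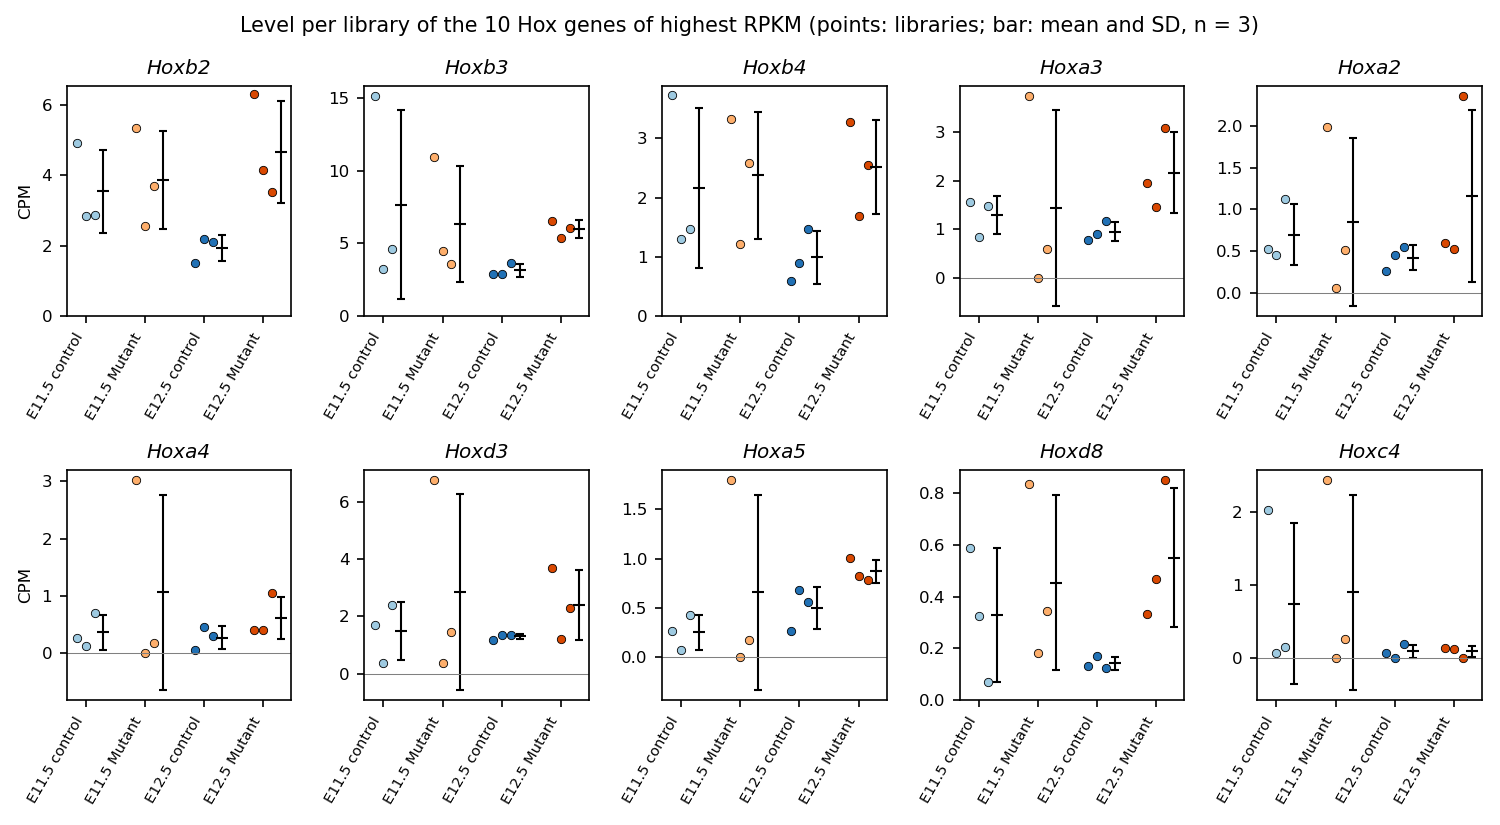
Level in CPM (vertical axis, 1 scale per panel) of the 10 Hox genes of highest RPKM in the 12 libraries. Points are libraries in replicate order within each of the 4 groups and bars give the mean and SD (n = 3). At E12.5 the mutant points of Hoxb2, Hoxb3, Hoxb4, Hoxa3, Hoxa5 and Hoxd8 lie above all control points, and at E11.5 the groups of all 10 overlap. Of all genes with at least 10 reads in the E12.5 libraries, 11.9% were higher and 13.2% lower without overlap.

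Without the filter 1 further member was called. With every gene of at least 1 read tested, 33 members entered and 3 were called, Hoxb2, Hoxb3 and Hoxb4 (log2 fold change 1.34, SE 0.38, edgeR adjusted p = 0.0476), beside 2.94% of 16789 genes. Many of the 33 had no read or a few in controls and so entered through the mutant libraries, and no direction is read from their number. Of 17 members with at least 10 reads in the 6 libraries, 9 did not overlap and were higher in mutants, where 11.9% of all genes with as many reads did so. Below the filter these were 5 members, namely Hoxa5, Hoxb5, Hoxc5, Hoxc13 and Hoxd8. Several of the 5 reached 10 reads through the mutants, with 1 read in controls and 13 in mutants for Hoxb5, 2 and 8 for Hoxc5, and 7 and 26 for Hoxd8. No direction is read from these counts either.

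Hoxd8 had 0.132, 0.169 and 0.123 CPM in E12.5 controls and 0.335, 0.467 and 0.851 CPM in mutants, and Hoxa5, a regulator of lung and trachea patterning, had 0.264, 0.677 and 0.553 CPM in controls and 1.004, 0.817 and 0.785 CPM in mutants. The 3 control values of Hoxd8 rest on 7 reads in all, near or below the limit that 3 reads set in a library. Neither gene passed the test (adjusted p = 0.144 and 0.437 in edgeR without the filter). Hoxa2 had 0.602, 0.525 and 2.36 CPM in mutants and 0.264 to 0.553 in controls, so that mutant 2 lay within the control range. Hoxa4 ranged from 0.0660 to 0.451 CPM in controls and had 0.401, 0.409 and 1.05 CPM in mutants, so the groups overlapped. Hoxd3 had 1.19 to 1.35 CPM in controls and 3.68, 1.23 and 2.29 CPM in mutants, and mutant 2 lay within the control range. Hoxc4 had 8 reads in these 6 libraries, with at most 0.184 CPM in controls and 0.134 in mutants, and its groups overlapped.

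Summed over their members, all 4 clusters lay higher in E12.5 mutants, and these sums were not tested. The members together had 8.51, 10.9 and 12.2 CPM in controls and 28.0, 19.0 and 24.7 CPM in mutants. Cluster B went from 6.39 ± 1.18 CPM in controls to 14.4 ± 3.26 in mutants, cluster A from 2.25 ± 0.584 to 5.35 ± 2.19, cluster D from 1.54 ± 0.141 to 3.21 ± 0.999 and cluster C from 0.360 ± 0.130 to 0.982 ± 0.263 (SD, n = 3). In each cluster the lowest mutant library lay above the highest control library. How often sums of other gene sets do so was not measured. Hoxa2, Hoxa4 and Hoxd3, which add to clusters A and D, overlapped between the groups on their own. Cluster C rested on 18 reads in controls and 46 in mutants, of which Hoxc13 gave 23.

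The posterior members, although hardly detected, also summed higher in E12.5 mutants than in controls. The 13 members of paralog groups 9 to 13 with any read summed to 0.338 to 0.396 CPM in E12.5 controls, from 18 reads, and to 1.31 to 1.58 CPM in E12.5 mutants, from 70 reads, a ratio of means of 4.01. The 3805 genes of the whole table with as few reads (1 to 40 over the 12 libraries) had a ratio of 1.20. At E11.5 the same 13 members summed to 0.491 to 0.523 CPM in controls and 0.608 to 1.46 in mutants, a ratio of means of 1.90, where those 3805 genes had a ratio of 1.44. Neither ratio was tested. Members entered by having any read, some of them through E12.5 mutant reads alone, so the ratios are no support for a direction. How far such a ratio varies between sets of 13 genes was not measured. Hoxc13, a regulator of hair and nail, gave the most of these reads, with 9, 5 and 9 reads in mutants 1 to 3 and 1, 4 and 0 in controls.

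At E11.5 no member was called. There were 4 members tested, beside 0.115% of 12197 genes being called, and none had an unadjusted p under 0.05, where 10.2% of genes did. The log2 fold changes were 0.13 for Hoxb2 (SE 0.36), -0.26 for Hoxb3 (SE 0.60), 0.14 for Hoxb4 (SE 0.51) and 0.19 for Hoxa3 (SE 0.99), with edgeR adjusted p from 0.948 to 0.977. With no filter 31 members were tested and 0 were called by edgeR, beside 0.418% of all genes, and 1 had an unadjusted p under 0.05, beside 9.01%. DESeq2 called 0.

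The spread between E11.5 libraries was wide, and it followed 1 library of each genotype. Hoxb3 had 15.2, 3.23 and 4.63 CPM in E11.5 controls 1 to 3 and 11.0, 4.50 and 3.62 CPM in mutants 1 to 3. Hoxb2 had 4.90, 2.84 and 2.88 CPM in controls and 5.32, 2.55 and 3.70 CPM in mutants, and Hoxb4 had 3.72, 1.29 and 1.47 CPM in controls and 3.33, 1.22 and 2.58 CPM in mutants. In all 3 genes control 1 and mutant 1 were the highest of their groups.

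Hoxa2 to Hoxa5 were high in mutant 1 alone. Hoxa3 had 3.72 CPM in mutant 1, no read in mutant 2, 0.603 CPM in mutant 3 and 0.840 to 1.57 CPM in controls. Hoxa4 had 3.01 CPM in mutant 1, no read in mutant 2, 0.172 CPM in mutant 3 and 0.129 to 0.702 CPM in controls. Hoxa5 had 1.80 CPM in mutant 1, no read in mutant 2, 0.172 CPM in mutant 3 and 0.0646 to 0.421 CPM in controls. Hoxa2 and Hoxd3 had the same order of libraries, with 1.99 and 6.73 CPM in mutant 1 and 0.0608 and 0.365 CPM in mutant 2. Hoxd8 had 0.588, 0.323 and 0.0702 CPM in controls and 0.834, 0.182 and 0.344 CPM in mutants.

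Hoxc4 and Hoxc5 came almost wholly from the same pair of libraries. Control 1 and mutant 1 at E11.5 held 69 of the 83 reads of Hoxc4 and 71 of the 82 reads of Hoxc5, and the 6 E12.5 libraries held 8 and 10. Hoxc4 had 2.03, 0.0646 and 0.140 CPM in E11.5 controls 1 to 3 and 2.44, 0 and 0.258 CPM in mutants 1 to 3. Hoxb5 had 35 of its 58 reads there. These 2 libraries are also high in the lung and foregut endoderm and liver markers given above: Cdh1 had 171 and 56 reads in them and 1 to 13 in the other E11.5 libraries, Afp had 319 and 787 reads against 2 to 6, and Nkx2-1, a lung and thyroid factor, had 50 reads in mutant 1 and at most 5 in the other E11.5 libraries. Their part in the Hox levels was not tested. Without both libraries, no member was called at E11.5 with or without the filter.

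**Figure D4:**
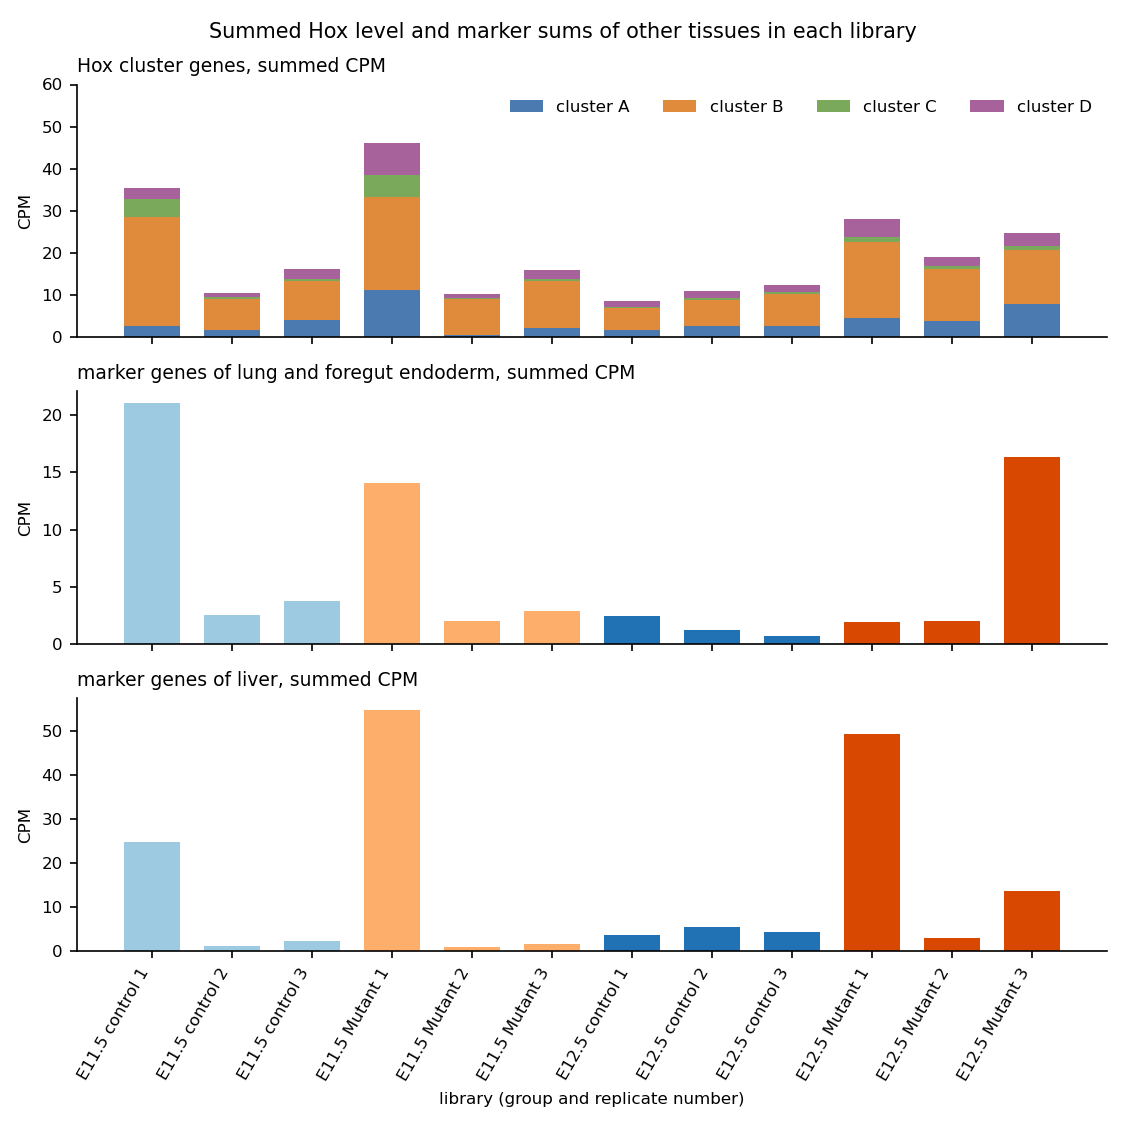
Summed CPM in each of the 12 libraries (horizontal axis) of the Hox members, stacked by cluster (top), of 7 lung and foregut endoderm markers (middle) and of 5 liver markers (bottom). The Hox sum is highest in control 1 and mutant 1 at E11.5, which are also high in both marker sums, and at E12.5 mutant 3 and mutant 1 are high in one or both while mutant 2 is not.

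The E12.5 libraries were also unequal in lung and foregut endoderm and liver markers, which were low in all 3 controls. Mutant 3 had 147 reads of Cdh1 and 78 of Epcam, where the 3 controls had 0 to 2 and 3 to 25, and mutant 1 had 277 reads of Alb, where controls had 1 to 16. Mutant 2 had endoderm and liver sums of 1.98 and 2.80 CPM, where controls had 0.676 to 2.44 and 3.56 to 5.41. In mutant 2 the summed Hox level was 19.0 CPM, above the 12.2 CPM of the highest control, and Hoxb2, Hoxb3, Hoxb4 and Hoxa3 were each above all 3 controls. With mutants 1 and 3 left out, the fit rests on 1 mutant library that is assumed to vary like the controls. The log2 fold change was then 1.10 for Hoxb2 (edgeR adjusted p = 0.237) and 0.78 for Hoxb3 (adjusted p = 0.334), and 0 members were called. Of 3 neural crest and Schwann genes tested, 1 was called, namely Prph, a peripheral neuron filament, 7.60-fold higher in E12.5 mutants (edgeR adjusted p = 0.00274). That list summed to 171 to 241 CPM in E12.5 mutants and 157 to 196 in controls, so the groups overlapped. Tubb3, the 1 gene of the neural tube list that was tested, was 2.24-fold higher (edgeR adjusted p = 0.00723), so the call rests on that gene alone. The 6 neural tube genes summed to 10.3 to 15.6 CPM in E12.5 mutants and 6.99 to 8.36 in controls, with Olig2 at 0 throughout. The 8 second heart field and pharyngeal mesoderm genes summed to 13.2 to 19.0 CPM in E12.5 mutants and 15.4 to 21.3 in controls. Of the blood lists, 3 of 5 erythroid genes tested (Hba-x, Hbb-y and Slc4a1) and 2 of 4 macrophage and leukocyte genes tested (Csf1r and Emr1) were lower in E12.5 mutants, the erythroid sum being 1732 to 2233 CPM in mutants and 3280 to 5112 in controls. The 7 skeletal and paraxial mesoderm genes, such as Myod1 and Pax3, summed to 1.14, 3.62 and 3.21 CPM in E12.5 mutants 1 to 3 and to 0.738 to 1.07 in controls, and mutant 2 was the highest of all 12 libraries. The 6 cushion mesenchyme genes summed to 843 to 990 CPM in mutants and to 1024 to 1299 in controls, without overlap. The part of these tissues in the Hox difference was not tested.

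**Figure D5:**
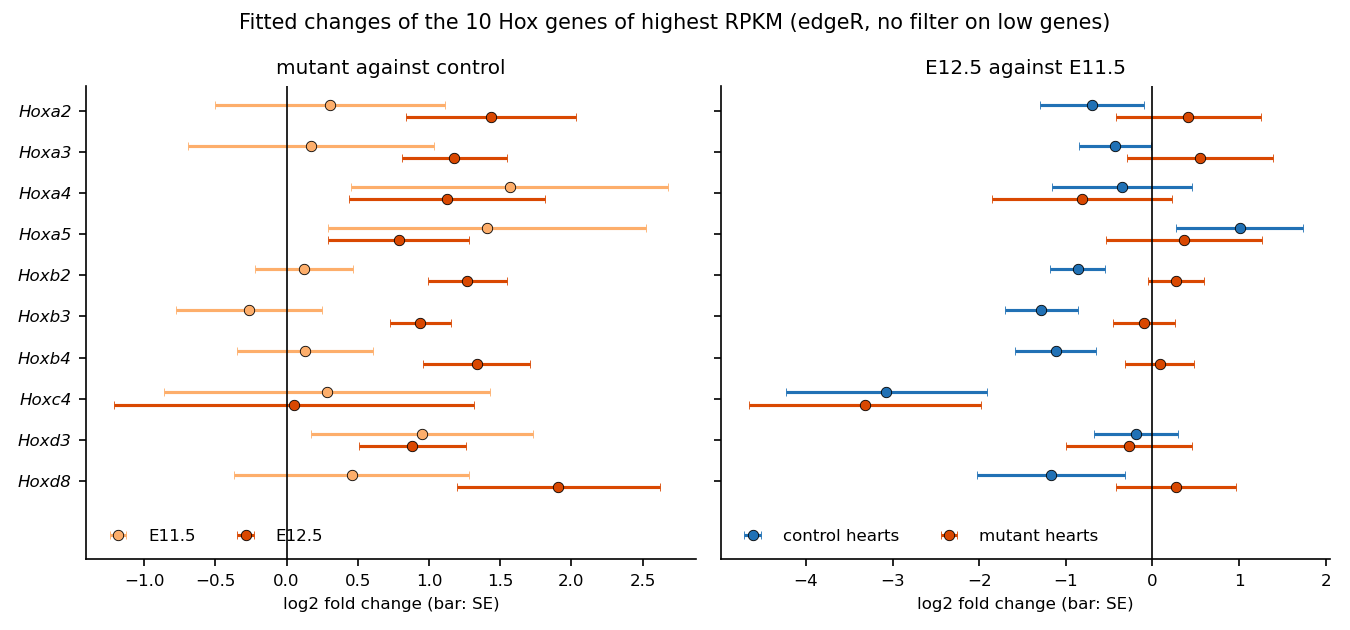
Fitted log2 fold change with its SE (horizontal axes) for the 10 Hox genes of highest RPKM, mutant against control at each stage (left) and E12.5 against E11.5 in each genotype (right), from edgeR without a filter on low genes. The E12.5 mutant estimates run from 0.05 for Hoxc4 to 1.91 for Hoxd8, and the control estimates on the right lie below 0 for all but Hoxa5.

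Between stages, the levels of the anterior members in controls were lower at E12.5 than at E11.5 without passing the threshold. There were 3 members tested in controls, and 0 were called by edgeR, beside 5.28% of 12252 genes called. All 3 had an unadjusted p under 0.05, where 32.8% of genes did, with log2 fold changes of -1.28 for Hoxb3, -1.12 for Hoxb4 and -0.86 for Hoxb2 (edgeR adjusted p from 0.0902 to 0.146). DESeq2 called 1 of them, Hoxb3, and without E11.5 control 2, the lowest of its group in Hoxb2, Hoxb3 and Hoxb4, edgeR called Hoxb3 and Hoxb2 (adjusted p = 0.0120 and 0.0462), beside 1407 of 12268 genes called. Without E11.5 control 1, the highest of its group, the log2 fold change shrank to -0.31 for Hoxb3 and -0.55 for Hoxb2 (edgeR adjusted p = 0.512 and 0.268) and Hoxb4 was not tested, beside 263 of 12214 genes called. Hoxb4 averaged 0.386 RPKM in E12.5 controls and passed the filter through the E11.5 libraries. Hoxb2 did not overlap between the stages, 1 of 3 members tested, where 19.1% of genes tested were lower without overlap. Sex differs between these groups, since all 3 E11.5 controls and 1 of 3 E12.5 controls were male, and with sex as a term 0 members were called. Marker genes were also called between the stages in controls, in both directions. In the second heart field and pharyngeal mesoderm list 1 of 4 genes tested was called higher and 1 lower. Of 6 endothelium and endocardium genes 1 was called higher, and of 5 erythroid genes tested 2 were called lower. Of 7 epicardium and mesothelium genes 4 were called lower (Wt1, Tcf21, Upk1b and Upk3b) and 1 higher (Msln), with all 7 at an unadjusted p under 0.05. Tubb3, the 1 gene of the neural tube list that was tested, was called lower. Their part in the Hox levels was not tested.

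In mutants the same contrast gave 0 calls among 6 members tested, beside 0.556% of 12238 genes called, and 0 of the 6 had an unadjusted p under 0.05, where 9.27% of genes did. DESeq2 also called 0. On the log2 scale Hoxb2 differed by 0.27 (SE 0.34) and Hoxb3 by -0.098 (SE 0.39). The 2 comparisons at E11.5 and E12.5 and the 2 between stages share their control and mutant libraries and are not independent of each other.

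The difference between the mutant effects at E12.5 and E11.5 was tested in a fit of all 12 libraries. No member passed among the 4 tested, nor did any of the 12270 genes in edgeR (0%), of which 4.49% had an unadjusted p under 0.05. DESeq2 called 43 genes and 0 members. Among the members 1 had an unadjusted p under 0.05, Hoxb2 at 1.14 (SE 0.48, unadjusted p = 0.0330). The other estimates were 1.19 for Hoxb3 (SE 0.72), 1.20 for Hoxb4 (SE 0.70) and 0.98 for Hoxa3 (SE 1.16), and the edgeR adjusted p was 0.956 for all 4. Leaving out 1 library at a time moved the estimate to 0.21 to 1.84 for Hoxb3 and 0.54 to 1.59 for Hoxb4, both lowest without E11.5 control 1, and to 0.37 to 1.21 for Hoxa3, lowest without E11.5 mutant 2. A call at E12.5 and none at E11.5 is therefore not shown to be a difference between stages.

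Of the genes that act with or on the Hox clusters few were called, and all lists but that of other activators summed to far higher levels. The 9 TALE cofactors (Pbx, Meis and Pknox genes), which bind DNA together with HOX proteins, were all tested and 0 were called in any of the 5 contrasts, and in no contrast did more than 1 have an unadjusted p under 0.05. Pbx2, the highest of them per length at 53.0 RPKM, had 141 ± 1.20 CPM in E12.5 controls and 141 ± 7.48 in mutants (SD, n = 3). Of the 18 Polycomb genes, 17 or 18 were tested and 0 were called in any contrast. Ezh2, the H3K27 methyltransferase, was the highest at 56.9 RPKM and had a log2 fold change of -0.12 at E12.5 (SE 0.069, edgeR adjusted p = 0.345). At E12.5, 5 of the 18 had an unadjusted p under 0.05, where 21.4% of all 12257 genes tested did. Of the 5 Trithorax genes and H3K27 demethylases tested, led by Men1 at 18.7 RPKM, 0 were called between genotypes, with 1 at an unadjusted p under 0.05 at E12.5 and 0 at E11.5, and Ash1l and Mll1 (Kmt2a), both histone methyltransferases, were higher at E12.5 than at E11.5 in controls (log2 fold change 0.77 and 0.71, adjusted p = 0.0313 and 0.0269).

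Of the 18 retinoic acid genes 14 were tested, and 0 were called between genotypes at either stage. An unadjusted p under 0.05 was found for 3 at E11.5 and 2 at E12.5, where 10.2% and 21.4% of all genes tested had one. The 18 genes summed to 480 to 549 CPM in E11.5 controls and 381 to 441 in E11.5 mutants. At E12.5 they summed to 411 to 452 CPM in controls and 459.3 to 459.5 in mutants. These sums were not tested. Aldh1a2, the main enzyme of retinoic acid synthesis in the embryo and the highest of the list at 35.7 RPKM, had 114 ± 18.2 CPM in E11.5 controls and 54.1 ± 16.6 in E11.5 mutants (log2 fold change -1.07, SE 0.23, edgeR adjusted p = 0.131), and at E12.5 it had 73.1 ± 21.5 CPM in controls and 81.5 ± 10.3 in mutants. Aldh1a1 was lower at E12.5 than at E11.5 in controls and in mutants (log2 fold change -1.96 and -1.20, adjusted p = 0.00198 and 0.0275), and Crabp1, a retinoic acid binding protein, was lower in controls (-1.26, adjusted p = 0.0357). Of the other activators, which include Cdx and Evx genes, 2 were tested and 0 were called. This list summed to 9.90 CPM in the lowest library, an E11.5 mutant, and 19.9 in the highest, an E12.5 control. Gdf11, the highest at 3.99 RPKM, had 9.48 ± 1.99 CPM in E12.5 controls and 6.81 ± 0.293 in mutants.

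The genes that flank the clusters gave no calls. Of the 24 nearest genes, 3 on each side of each cluster, 19 were tested and 0 were called in any of the 5 contrasts. At E12.5 their log2 fold changes between genotypes ran from -0.32 to 0.27 with a median of 0.0064, beside a median of -0.0018 over all genes tested. An unadjusted p under 0.05 was found for 3 of the 19, where 21.4% of all genes tested had one. Whether the Hox difference extends beyond the clusters was not tested.

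Promoter sequence was read from RefSeq for 21 of the 37 members, as the 250 bases before and 50 after a gene start. The letters AGGTCA, the half-site of retinoic acid receptors, on either strand, are in 6 of these members' 23 promoters (26.1%) and in 16.3% of all 32851. The letters GAGAGAGA, a repeat bound by GAGA factors, are on neither strand of any of the 23 and in 3.93% of all. TGATNNAT, a composite site of HOX and PBX proteins, on either strand is in 4 of the 23 (17.4%) and in 8.85% of all. The 250 bases before the start are shown for the 3 of the 10 highest members whose E12.5 groups did not overlap and whose stretch holds no exon of GENCODE vM21, so that a stretch with the half-site can be seen beside one without. They are Hoxa5 (chr6:52204588-52204837, minus strand), Hoxb4 (chr11:96318017-96318266, plus strand) and Hoxd8 (chr2:74704365-74704614, plus strand) in GRCm38.p6, written 5′ to 3′ with AGGTCA or its complement TGACCT in capitals.
Hoxa5: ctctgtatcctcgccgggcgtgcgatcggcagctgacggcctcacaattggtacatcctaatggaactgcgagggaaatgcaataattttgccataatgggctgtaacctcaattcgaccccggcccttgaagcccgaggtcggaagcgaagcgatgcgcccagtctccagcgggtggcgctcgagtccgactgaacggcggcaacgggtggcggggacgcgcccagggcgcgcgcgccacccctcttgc
Hoxb4: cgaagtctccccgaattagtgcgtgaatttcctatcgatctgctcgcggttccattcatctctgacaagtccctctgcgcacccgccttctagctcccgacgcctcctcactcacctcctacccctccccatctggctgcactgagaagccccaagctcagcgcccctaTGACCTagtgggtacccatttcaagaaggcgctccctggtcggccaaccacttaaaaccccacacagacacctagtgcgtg
Hoxd8: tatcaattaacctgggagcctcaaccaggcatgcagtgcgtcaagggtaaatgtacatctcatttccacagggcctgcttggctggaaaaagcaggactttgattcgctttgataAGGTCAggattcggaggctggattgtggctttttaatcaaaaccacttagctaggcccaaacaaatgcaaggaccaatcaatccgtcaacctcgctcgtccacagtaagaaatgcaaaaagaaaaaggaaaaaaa
Hoxb4 and Hoxd8 each hold 1 match, which begins 81 and 135 bases before the start, and Hoxa5 holds none in this stretch, which is 63.6% G or C against 58.0% and 44.4% in the other two. The match counted for Hoxa5 lies in the 50 bases after the start, which are not shown. The start that RefSeq gives for Hoxb4 lies inside the longer gene span of the files. A match is a description of letters and was not tested for binding.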

How the data were processed

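RNA from embryonic hearts was sequenced in 12 libraries of 4 groups, 3 each. The authors aligned paired-end reads to mm10 with Bowtie2 and normalised counts with DESeq. The counting program, annotation and use of strand are not given in the sources used here. The deposited per-library values are scores: each is a whole read count multiplied by a factor for the gene's length and a factor for the library. The authors also deposited average counts per group (estimated counts, without X and Y genes), and with these both factors were divided out. The factors were fitted on 10860 genes, and the values left were within 1.13e-05 of whole numbers for all 17827 genes with reads. The columns of the authors' own fold changes and p-values were not used. Rows that join overlapping genes numbered 64. The recovery was tested on simulated data, where 3923 of 3923 genes were recovered.

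Counts were tested with edgeR 4.0.16 (glmQLFit, glmQLFTest, TMM) in R 4.3.3, leaving out genes whose RPKM averaged under 0.5 in the libraries fitted. Calls needed p of 0.05 or less after Benjamini-Hochberg adjustment over all genes tested and a fold of at least 1.5, except for the difference between stages, which had no fold threshold. The SE is the log2 fold change divided by the square root of F. Levels are CPM scaled by TMM, or RPKM where genes are compared. In a simulation of the E12.5 comparison on 12265 genes, 96 of 100 genes changed 2-fold were called, with 8 false calls of 145. The simulated spread was the same for every gene, and the changed genes had more reads than most members have. The simulation therefore does not tell how often a change of a Hox member would be called. Alternatives used DESeq2 1.42.0, limma 3.58.1, other filters, sex, the replicate number and left-out libraries. Values per library are given for called members, for the 10 of highest mean RPKM and for the member of lowest p in each contrast, and other genes of a list are named when called or highest. Further members were named after their values were seen, namely Hoxb1, Hoxb5, Hoxc5 and Hoxc13. One further gene that matches the rule for members is not reported here. Members, lists and tests were chosen with earlier results of these data known, so an agreement with a list's direction is not independent evidence. Gene and promoter positions are in GRCm38.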

Additional observations from a re-analysis of the deposited data

Results flagged for a closer look

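Hoxc13 was picked out because its mutant libraries lay on opposite sides of the controls at the 2 stages. Of all genes with at least 10 reads, 8.45% were lower without overlap at E11.5 and 11.9% were higher at E12.5. The share that did both was not measured. It had 0.0641, 0.0608 and 0.0861 CPM in E11.5 mutants 1 to 3 and 0.196, 0.258 and 0.140 in E11.5 controls, a difference of means of -0.128 CPM. At E12.5 it had 0.602, 0.292 and 0.589 CPM in mutants and 0.0660, 0.226 and 0 in controls, a difference of 0.397 CPM. These levels rest on 40 reads in all 12 libraries. The E11.5 mutants hold 3 of them, and their levels lie below the limit of 0.172 to 0.25 CPM. In edgeR without the filter the difference between the 2 effects was 3.63 on the log2 scale (SE 1.29, unadjusted p = 0.0112, adjusted p = 0.910), so it did not pass the threshold. Groups of 3 libraries were not searched for outlying values.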

How the results depend on the processing

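Hoxb2 and Hoxb3 kept their direction at E12.5 in every alternative run that tested them. The count of 2 called members at E12.5 became 0 with a mean RPKM of at least 5, where no member was tested, 0 with all 12 libraries in one fit, 1 with limma on log2(RPKM + 1), and 0 with mutant libraries 1 and 3 left out, with the filter or without. Leaving out 1 library at a time gave 0 to 3 calls: 0 without control 1, control 2 or mutant 1, 1 without mutant 2 or mutant 3, and 3 without control 3. DESeq2, no filter and sex as a term gave 3, and the other alternatives run gave 2. In controls between stages, DESeq2 called 1 in place of 0 and leaving out a library gave 0 to 2, with 2 without E11.5 control 2. In the other 3 contrasts every alternative run gave 0. With a replicate block the counts were 2 at E12.5 and 0 in the other contrasts, but deviations of same-numbered libraries correlated at -0.115 to 0.401, so the numbers are not shown to pair libraries. All 40 levels of the 10 named members moved by less than 1 SD under RLE scaling. The 10 read minimum and the libraries left out in pairs were chosen after seeing the data. Depth limits 16 members to at most 10 reads over all 12 libraries.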
